A study of Mus musculus with 4 samples.

Results

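Notch signaling was followed through 10 of its genes in single-nucleus RNA-seq (snRNA-seq) of the mouse kidney. The genes were chosen by symbol from the 31053 genes of the count matrices, with no measured value in the rule, and each of the 10 symbols matched 1 row. They are the receptors *Notch1*, *Notch2* and *Notch3*, the ligands *Jag1*, *Jag2* and *Dll4*, the ligand ubiquitin ligase *Mib1*, the receptor protease *Adam10*, and the target genes *Hes1* and *Hey1*. A list of 50 other genes of the pathway, grouped by role, served as their surroundings. The samples were 4 male mice of 12 weeks with 1 library each. All 4 carried floxed *Tfap2a* on both alleles, with loxP sites around exons 5 and 6. The 2 controls were littermates without Cre (genotype label Cre-,Tfap2aFlox/Flox), and the 2 knockouts were Hoxb7Cre+;Tfap2a fl/fl mice (label Cre+,Tfap2aFlox/Flox). Hoxb7Cre acts in collecting ducts and in the epithelium of the lower urinary tract. The reads lie near the 3′ end of a transcript and do not test the deletion of the exons itself. *Tfap2a* was read at 58.2 and 99.8 UMIs per 1000000 UMIs of the class (CPM) in principal nuclei of the controls and at 66.4 and 111 CPM in those of the knockouts. In the epithelium of the renal pelvis, *Tfap2a* had 11 UMIs in each control (42.2 and 25.1 CPM) and 0 in each knockout. A count of 0 there allows up to 22.2 CPM in knockout 1 and 18.6 CPM in knockout 2. The difference did not pass edgeR's quasi-likelihood test between genotypes (adjusted p = 0.751).

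In Notch signaling, a ligand of the Jagged or Delta family on one cell binds a Notch receptor on its neighbor. Ubiquitination of the ligand lets it be pulled into its own cell, the receptor is then cut outside the membrane by ADAM proteases and within it by γ-secretase, and the freed intracellular domain joins RBPJ and Mastermind-like proteins in the nucleus to turn on genes such as *Hes1* and *Hey1*. In the collecting duct, this exchange between adjoining cells is known for setting the balance of principal cells, which take up sodium and water, and intercalated cells, which secrete acid or base. In blood vessels, it is known for arterial identity and for the restraint of sprouting.

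The libraries held 22179410 to 44964099 unique molecular identifiers (UMIs) each. From 5430 to 7998 nuclei per mouse passed the filters, 27343 in all, with medians of 2506 to 2797 UMIs per nucleus and with 48.2% to 84.3% of a library's UMIs in nuclei. Between 7 and 18 barcodes were shared by any pair of libraries. Clusters, made without the 60 pathway genes, gave 12 broad classes with 25294 nuclei, in which 85 of 95 class markers were highest in their own class. In collecting duct principal nuclei (CD-PC), 5 of 9 markers were highest. The other 4 (*Scnn1b*, *Scnn1g*, *Gata3* and *Hsd11b2*) were higher in another class. The estimated share of free RNA, UMIs from outside the nucleus of a droplet, ran from 2.06% to 33.9% of a broad class sum. Levels are given as CPM of each class in each mouse. Where 4 values follow each other, they are those of control 1, control 2, knockout 1 and knockout 2 in this order. CPM is not scaled by gene length, and so compares a gene between classes but not genes with each other. A count of 0 allows up to 3 UMIs, which in the deepest class, the proximal tubule, is 0.0653 CPM over the 4 mice and in the shallowest, the immune nuclei, 17.8 CPM.

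For the ligands *Jag1* and *Dll4*, which were both highest in intercalated nuclei among the collecting duct classes, the 250 bases before the start site are shown from RefSeq (GRCm38.p6, the assembly of build mm10), together with those of *Hey2*, a target of the pathway list that shared this pattern, and 27 bases before the start of *Jag2*, the 1 member with an AP-2 match. *Jag1* lies on the minus strand of chromosome 2 (gene at chr2:137081451-137116520, shown chr2:137116521-137116770), *Dll4* on the plus strand (gene at chr2:119325784-119335666, shown chr2:119325534-119325783), *Hey2* on the minus strand of chromosome 10 (shown chr10:30842784-30843033) and *Jag2* on the minus strand of chromosome 12 (gene at chr12:112907803-112929812, shown chr12:112929496-112929522). Each is written 5′ to 3′ on the gene's strand, and capitals mark matches on either strand to GCCNNNGGC (the core bound by AP-2 factors such as TFAP2A), TGGGAA (bound by RBPJ), GTAAACA (forkhead factors) or GGGCGG (the GC box), and for *Jag2* the AP-2 match alone. For *Jag2*, the RefSeq gene reaches farther upstream than the start site used, so that the stretch lies inside the annotated gene.
Jag1: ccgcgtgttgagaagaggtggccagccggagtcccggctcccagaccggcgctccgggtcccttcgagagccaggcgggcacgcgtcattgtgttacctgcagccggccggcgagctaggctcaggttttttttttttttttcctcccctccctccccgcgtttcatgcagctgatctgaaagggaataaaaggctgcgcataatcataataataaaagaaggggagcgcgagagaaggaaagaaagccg
Dll4: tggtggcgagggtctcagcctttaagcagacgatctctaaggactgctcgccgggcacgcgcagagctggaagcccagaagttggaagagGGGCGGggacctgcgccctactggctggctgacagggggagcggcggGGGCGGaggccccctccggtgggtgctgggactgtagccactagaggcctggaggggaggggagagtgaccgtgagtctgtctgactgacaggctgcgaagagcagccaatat
Hey2: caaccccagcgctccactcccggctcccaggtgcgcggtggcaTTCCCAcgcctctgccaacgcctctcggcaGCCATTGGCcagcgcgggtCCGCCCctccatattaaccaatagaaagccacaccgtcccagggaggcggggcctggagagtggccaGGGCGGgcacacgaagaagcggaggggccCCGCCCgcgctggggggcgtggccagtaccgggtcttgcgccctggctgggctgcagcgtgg
Jag2: gcggcggcggcgggGCCGCGGGCgggg
The 250 bases before the start were searched for 7 of the 10 members. The AP-2 core was found in 1 of the 7, 13 bases before the start of *Jag2*, against 13.7% of 32851 RefSeq promoters of the same length. The RBPJ and forkhead motifs were found in 0 of the 7, against 21.6% and 3.17% of promoters, and the GC box in 6 of the 7, against 32.7%, with *Jag1* the exception. Matches of the AP-2 core and the GC box may overlap, as the 2 are both rich in G and C. The *Hey2* stretch held 1 RBPJ match 207 bases and 1 AP-2 match 177 bases before the start. A match is a string of letters and not a bound site, and a missing match says only that these letters are not in the window.

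The receptors differed in where they were read. *Notch1*, which is known for its part in vessel formation, was highest in endothelial nuclei (EC), at 158, 196, 202 and 253 CPM (202.5 ± 38.9, SD, n = 4). In interstitial nuclei (IntC), the next class, it stood at 31.0, 68.5, 71.4 and 57.6 CPM, so that the 4 mice of the classes did not overlap. *Notch2*, the receptor known for its role in making proximal tubule in the developing nephron, was read in nearly every class. Its mean was between 55.4 and 169.8 CPM in 10 of the 12, and it was low in CD-ICs (collecting duct intercalated nuclei; 17.2 ± 6.90) and in ECs (13.5 ± 2.40), which overlapped with each other and were both apart from the distal convoluted tubule (DCT; 55.4 ± 6.36). The highest *Notch2* mean, in immune nuclei (ImC; 169.8 ± 156), rested on 30 UMIs. *Notch3*, known from vascular mural cells, was highest in IntCs, at 118, 377, 125 and 158 CPM, apart from the thick ascending limb (TAL), which followed at 51.1, 45.2, 28.1 and 49.4 CPM. Control 2 was the high mouse in IntCs, and the other 3 lay close together. *Notch1* thus stood out in the endothelium and *Notch3* in the interstitium, whereas *Notch2* was spread over the tubule.

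The ligands were each concentrated in few classes. *Jag1*, a Jagged ligand, was highest in CD-ICs, at 196, 114, 241 and 154 CPM (176 ± 54.9, SD, n = 4). The thin limb (tL) came next at 65.5, 68.3, 77.9 and 47.6 CPM and overlapped with the deep medullary epithelium of the pelvis (DMEP), at 61.4, 79.8, 51.7 and 43.3 CPM. CD-ICs were apart from both. In the connecting tubule (CNT), which adjoins the collecting duct, *Jag1* was at 2.12, 5.35, 1.35 and 0 CPM, the lowest mean of the 12 classes. *Jag2* was highest in DMEP, at 53.8, 86.6, 88.7 and 80.5 CPM, and then in ECs, at 26.8, 41.7, 21.8 and 43.0 CPM. These 2 classes were apart from each other, and ECs from the next, and the highest mean of the other 10 was 3.77 CPM. *Dll4*, the Delta ligand known from sprouting vessels, was highest in ECs, at 62.5, 89.2, 94.9 and 111 CPM. CD-ICs followed at 8.71, 17.8, 16.9 and 14.9 CPM, apart from ECs. *Dll4* was at 0 UMIs in all 4 mice in DCT, DMEP, IntC and ImC, which over the 4 mice allows 1.72, 3.01, 6.14 and 17.8 CPM, respectively.

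*Mib1* and *Adam10*, which act on the ligand and on the receptor, respectively, had UMIs in all 12 classes. *Mib1* class means ran from 83.1 CPM in DMEP to 168 CPM in podocytes (Podo), and each class overlapped with the next in the order of means. *Adam10* was highest in ECs, at 244, 282, 257 and 276 CPM (264.5 ± 17.4, SD, n = 4), overlapped there with DMEP (250.3 ± 62.5), and was lowest in the TAL (90.8 ± 3.52). The targets differed. *Hes1*, a repressor turned on by Notch and by other pathways, had its highest means in DMEP (214 ± 92.2) and ECs (182 ± 87.5), which overlapped, and its lowest in the proximal tubule (PT; 18.6 ± 7.49). *Hey1*, known as a Notch target in vessels, was scarce, with 44 UMIs in the 12 classes. It was at 6.38, 9.92, 7.78 and 7.59 CPM in ECs and at 0 UMIs in all mice in 6 classes (Podo, TAL, DCT, CNT, IntC and ImC). Of the ligands and targets, CD-ICs held the highest class level of *Jag1*, ECs those of *Dll4* and *Hey1*, and DMEP those of *Jag2* and *Hes1*, with the *Hes1* and *Hey1* levels overlapping with the next class.

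**Figure D1:**
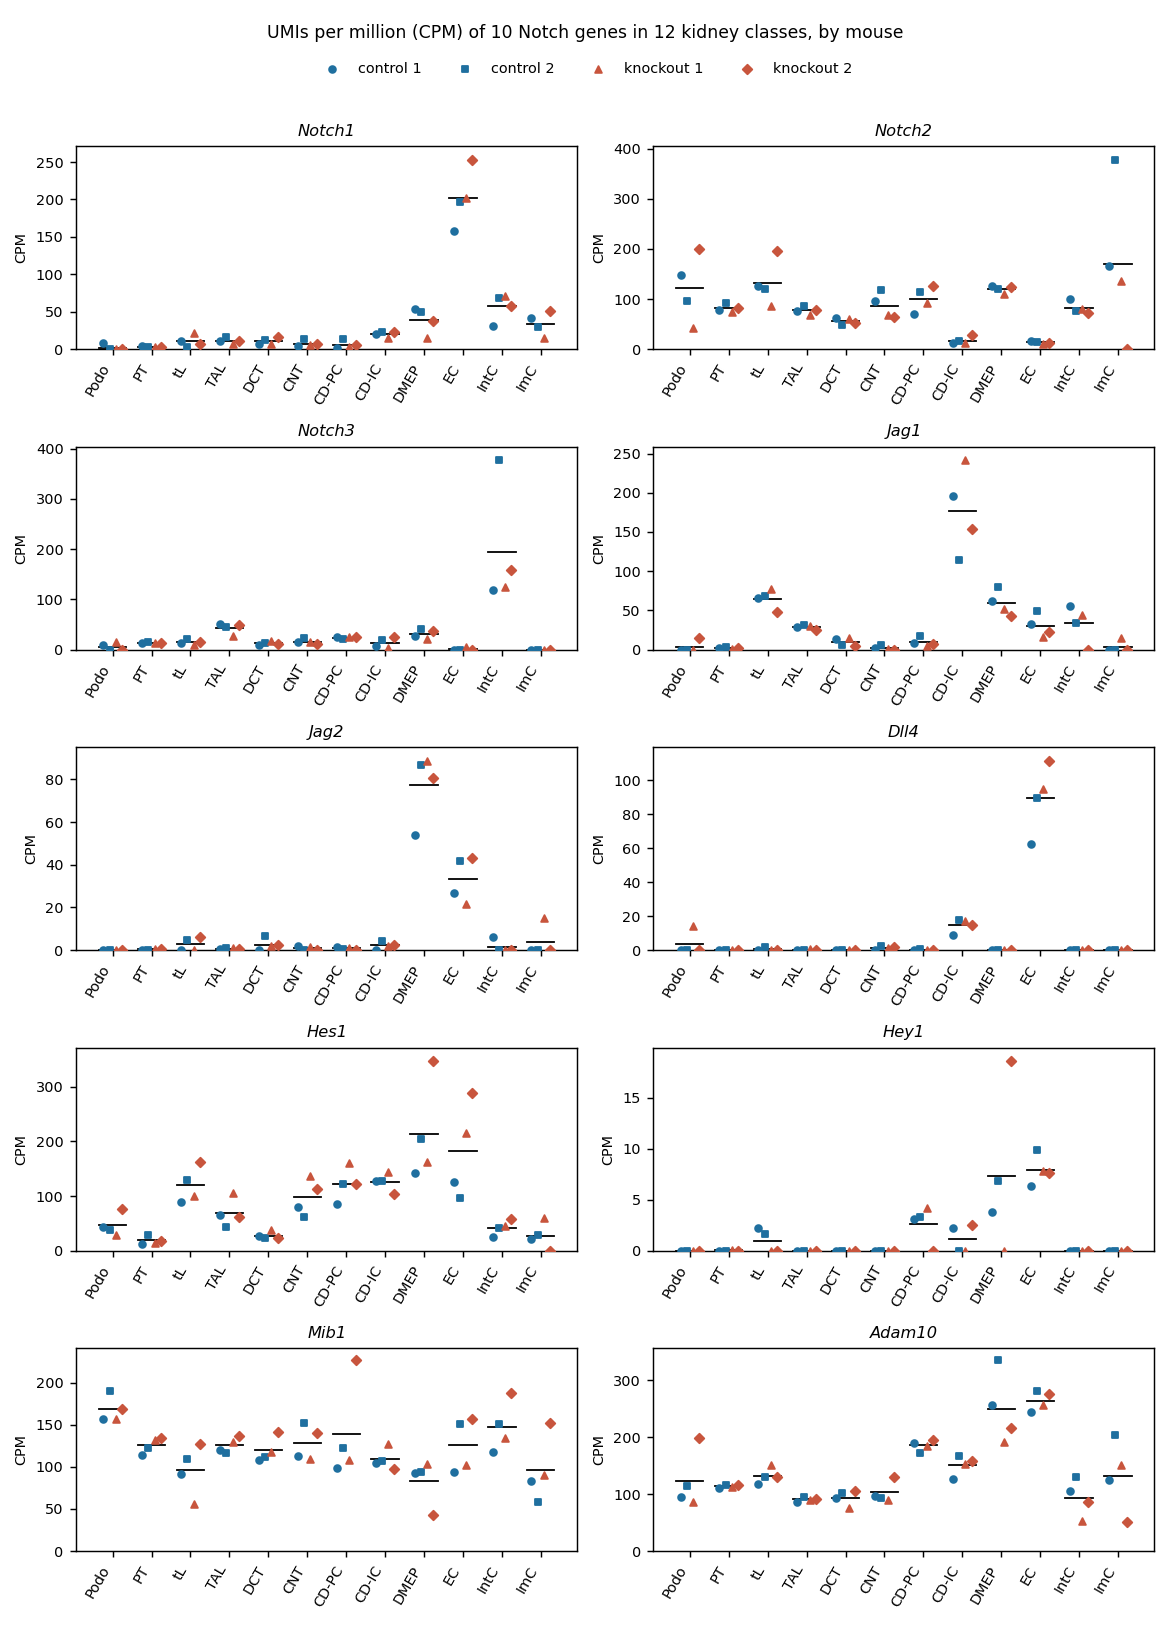
Level of each of the 10 Notch genes (CPM, vertical axis, linear, own scale per panel) in 12 kidney classes (horizontal axis); a point is 1 mouse, with its own symbol, and the line is the mean of the 4. *Notch1* and *Dll4* stand out in EC, *Notch3* in IntC, *Jag1* in CD-IC and *Jag2* in DMEP, while *Mib1* is at 83.1 to 168 CPM on average in every class.

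Free RNA adds to these levels in proportion to its estimated share of a class sum, 2.06% to 33.9%. In barcodes with too few UMIs to be nuclei, *Jag1* was at 7.04 to 13.7 CPM, *Notch1* at 4.76 to 10.7, *Notch3* at 6.35 to 11.7, *Dll4* at 3.90 to 4.76 and *Jag2* at 2.01 to 4.76 CPM over the 4 libraries. *Notch2* was at 44.0 to 71.4, *Hes1* at 28.7 to 67.0, *Mib1* at 58.7 to 95.3 and *Adam10* at 65.3 to 96.2 CPM. Many mean levels lay within or below these ranges. As free RNA is only a part of a class sum, such a level is not by that fact background. Among them were *Jag1* in CD-PC, CNT and DCT, *Notch1* in CD-PC, CNT and PT, *Notch2* in CD-IC and EC, *Hes1* in PT and DCT, *Adam10* in TAL, DCT and IntC, and *Mib1* in DMEP. With the expected free RNA subtracted, each of the 10 genes kept its highest class.

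Principal and intercalated nuclei, the cell types between which Notch signals in the collecting duct, were then compared. *Jag1* and *Dll4* were higher in CD-ICs, and *Notch2* was higher in CD-PCs, each in 4 of 4 mice. The comparison rests on 1240 CD-PC and 658 CD-IC nuclei, added up within each mouse and compared by edgeR's quasi-likelihood test with the mouse as a block and Benjamini-Hochberg adjustment over 14199 genes. Of all genes tested, 40.3% passed the test, 23.1% higher and 17.3% lower in CD-PCs, so that a member past the threshold is not unusual in this pair of cell types. Of the 10 members, 9 had the 10 UMIs needed for a test, with 2 higher and 3 lower in CD-PCs. *Jag2*, with 4 UMIs in each cell type, was not tested. Nuclei of the 2 cell types came in the ratio of 1.81, 3.01, 1.5 and 1.25 CD-PCs per CD-IC.

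Among the ligands, *Jag1* was at 8.54, 18.0, 5.27 and 7.22 CPM in CD-PCs, against the 114 to 241 CPM of CD-ICs. No CD-PC sum came near the lowest CD-IC sum. The log2 fold change was -3.88 (SE 0.24, adjusted p = 1.92e-27), which is 14.7-fold lower in CD-PCs. With a mouse left out, it ran from -4.70, without control 2, to -3.52. *Dll4* was found with 26 UMIs in CD-ICs and 1 UMI in CD-PCs, a ratio per UMI sequenced of 69.5 (exact 95% interval 11.4 to 2848, which covers counting error only). The difference passed the test (log2 fold change -5.33, SE 0.88, adjusted p = 2.17e-07), and so it did without control 2 (-6.16), with nuclei under 1% mitochondrial UMIs (-4.42) and with free RNA subtracted (-6.57). *Dll4* entered the test only through its CD-IC counts. *Dll1*, the other Delta ligand tested, was at 36.9 CPM on average in CD-ICs and 6.63 CPM in CD-PCs (log2 fold change -2.47, SE 0.35, adjusted p = 3.54e-09).

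Among the receptors, *Notch2* was at 70.7, 115, 91.7 and 126 CPM in CD-PCs and at 13.1, 15.6, 12.7 and 27.3 CPM in CD-ICs. The cell types did not overlap, with a log2 fold change of 2.64 (SE 0.25, adjusted p = 1.64e-16), 6.25-fold. The log2 value was 2.52 to 2.79 with a mouse left out and 3.43 with free RNA subtracted. *Notch1* differed in the opposite direction, at 1.55, 14.2, 3.16 and 5.78 CPM in CD-PCs and 19.6, 22.3, 14.8 and 22.4 CPM in CD-ICs. These were 35 UMIs in each cell type, and again no mouse overlapped, although control 2 in CD-PCs was just under knockout 1 in CD-ICs (log2 fold change -1.58, SE 0.43, adjusted p = 0.00164). With a mouse left out, the *Notch1* value ran from -2.43, without control 2, to -1.21. Over the alternatives its highest adjusted p, from edgeR's test, was 0.0463. *Notch3* was at 24.9, 21.3, 25.3 and 24.5 CPM in CD-PCs and spread over 6.53, 20.1, 4.23 and 24.9 CPM in CD-ICs. Its cell types overlapped. *Notch3* passed the test (log2 fold change 0.92, SE 0.35, adjusted p = 0.0293), but not without control 1 (0.65, adjusted p = 0.239) or knockout 1 (0.59, adjusted p = 0.229). It also missed the threshold with DESeq2 (adjusted p = 0.202), filterByExpr (0.0584), no mouse block (0.0957), nuclei under 1% mitochondrial UMIs (0.484) and free RNA subtracted (0.0954).

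The targets did not follow a single direction. *Hes1* was at 84.6, 122, 160.2 and 123 CPM in CD-PCs and at 128, 127, 144 and 104 CPM in CD-ICs. CD-ICs were higher in both controls and CD-PCs in both knockouts, and the log2 difference over the 4 mice was 0.01 (SE 0.17, adjusted p = 0.983). The difference of the genotype effect between the cell types was 0.48 on the log2 scale (SE 0.36, adjusted p = 1). *Hey1* had 14 UMIs in CD-PCs and 2 in CD-ICs (log2 difference 1.26, SE 1.15, adjusted p = 0.413). Of the other targets, the bHLH repressors *Heyl* and *Hes7* had 36 and 18 UMIs in CD-PCs and 0 in CD-ICs. Against the 3 UMIs that a count of 0 over the 4 mice allows, they were at least 4.49-fold and 2.25-fold higher, and both passed the test (adjusted p = 0.00051 and 0.0159). *Hey2* was the reverse, with 25 UMIs in CD-ICs and 1 in CD-PCs, a ratio of 66.8 (exact interval 10.9 to 2742; adjusted p = 1.19e-06). Like *Dll4*, these 3 entered the test only through their higher group and so had to differ. *Mib1* and *Adam10* did not pass the test, with log2 differences of 0.35 (SE 0.18, adjusted p = 0.111) and 0.38 (SE 0.16, adjusted p = 0.056). *Adam10* was at 190.2, 172, 186 and 195 CPM in CD-PCs and 126, 167, 152 and 159 CPM in CD-ICs, higher in CD-PCs of all 4 mice.

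Among the other 50 genes of the pathway, 42 were tested, 11 were higher and 10 lower in CD-PCs, and DESeq2 called 12. The counts include *Heyl*, *Hes7* and *Hey2*. The median log2 difference was -0.12 over these 42 and 0.08 over all genes tested. Ligand ubiquitination held 3 genes of 5 tested that were higher in CD-PCs, none lower. These were the Neuralized ligases *Neurl3* (26.3 against 2.98 CPM, log2 fold change 3.23), *Neurl1a* (23.8 against 2.77 CPM, 3.08) and *Neurl1b* (56.2 against 36.1 CPM, 0.72). *Neurl3* and *Neurl1a* had each 4 UMIs in type A and 1 in type B intercalated nuclei, under the 10 needed. Both thus entered the test only through CD-PCs, so that their calls are no support for a difference of the group. Of the corepressors, which silence targets where Notch is off, *Tle4* (-0.66) and *Ncor1* (-0.47, log2) were lower in CD-PCs. Receptor cleavage went both ways, with *Furin* (0.99) and the γ-secretase subunit *Psenen* (1.19) higher and *Aph1b* (-1.28) and *Adam17* (-0.49) lower of 10 tested. In the nuclear complex, *Rbpj* (0.69) and *Snw1* (0.75) were higher and the coactivator *Maml3* (-0.66) was lower of 8 tested. *Poglut1* (0.89) was higher and *Pofut1* (-0.80) lower of 3 genes for receptor sugars, and *Itch* (0.45) was higher and *Numb*, an inhibitor of Notch, lower (-0.75) of 6 inhibitors.

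**Figure D2:**
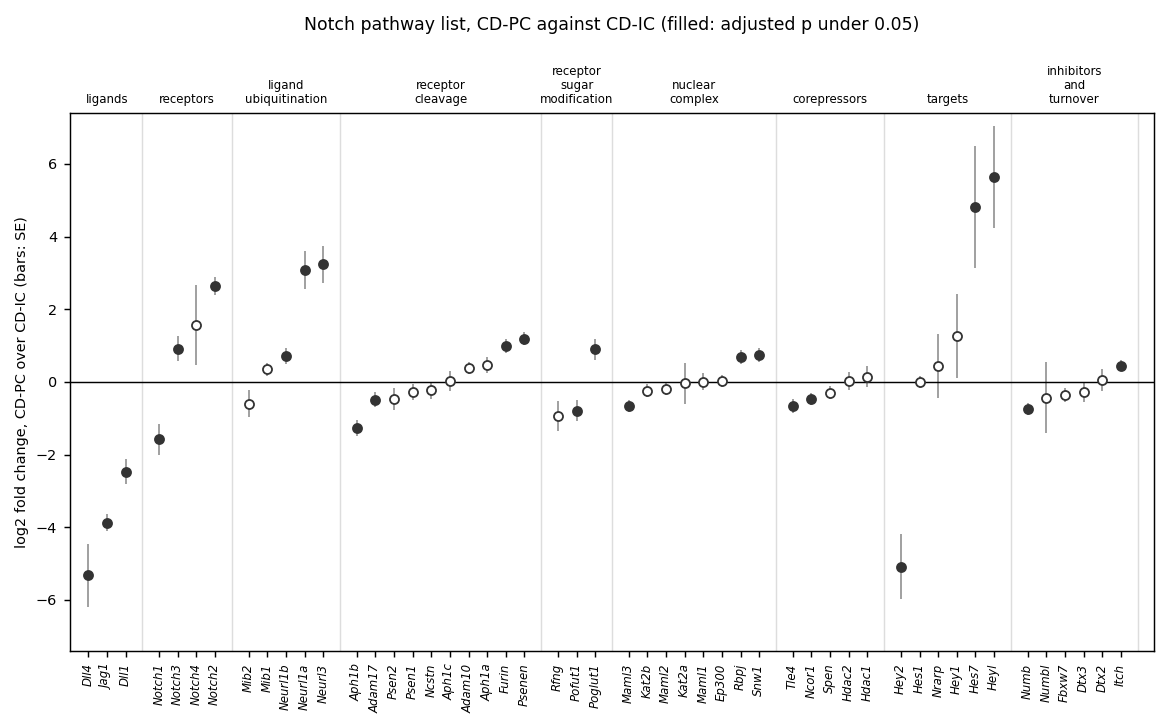
Log2 fold change of tested genes of the Notch pathway list in CD-PC over CD-IC (vertical axis; bars, SE), grouped by role and ordered within a role (horizontal axis); filled points have an adjusted p under 0.05 in edgeR's quasi-likelihood test over 4 mice. The 3 ligands are all below 0 and *Notch2* is the receptor farthest above 0. *Hes7* and *Heyl* had no UMI in CD-IC, so their fitted values are not bounds.

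Principal nuclei were then divided by markers into 568 sodium channel principal nuclei and 672 principal nuclei of inner medullary type (IMCD). Sodium channel principal nuclei had more *Notch2* and *Mib1* and less *Adam10*. In the test, 37.9% of 13336 genes passed, 16.9% higher and 21% lower in the sodium channel nuclei, and the median log2 difference of all genes was -0.08 with TMM and 0.04 without. Of the members, 8 were tested, 4 higher and 1 lower. *Notch2* was at 133, 159, 130.5 and 161 CPM in the sodium channel nuclei and at 49.8, 84.3, 59.7 and 106 CPM in the IMCD type, without overlap (log2 fold change 0.88, SE 0.18, adjusted p = 5.47e-05). *Adam10* was at 92.7, 137, 126 and 165 CPM against 223, 197, 235 and 212 CPM in the IMCD type, again without overlap and in the other direction (-0.87, SE 0.17, adjusted p = 2.35e-05).

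*Mib1* was at 204, 172, 158 and 502.5 CPM in sodium channel nuclei and at 63.3, 88.0, 67.4 and 72.1 CPM in the IMCD type. Knockout 2 was far above the other mice in the sodium channel nuclei, with 125 UMIs in 62 of 88 nuclei and at most 6 in a nucleus, while the IMCD type was even across mice. The difference passed the test (log2 fold change 1.51, SE 0.19, adjusted p = 1.36e-09) and passed it without knockout 2 (1.20, adjusted p = 8.27e-06). *Jag1* was scarce in both, at 9.27, 29.2, 11.7 and 12.1 CPM against 8.30, 10.2, 0 and 4.51 CPM, and its call (1.26, SE 0.50, adjusted p = 0.0379) was lost without control 2, knockout 1 or knockout 2 (adjusted p = 0.244, 0.107 and 0.0562) and with DESeq2 (0.189), no mouse block (0.102) and free RNA subtracted (0.0929). *Hes1* was at 164, 110.1, 261 and 129 CPM against 58.1, 129.7, 77.0 and 119 CPM. These ranges overlapped, with knockout 1 the highest in the sodium channel nuclei, and the call (0.62, SE 0.21, adjusted p = 0.0128) was lost without control 1 (0.40, adjusted p = 0.192) or knockout 1 (0.31, adjusted p = 0.306) and with DESeq2 (0.153), no mouse block (0.085) and nuclei under 1% mitochondrial UMIs (0.0762). *Hey1* had 1 UMI in sodium channel nuclei and 13 in the IMCD type (adjusted p = 0.0779). *Notch3*, at 34.0, 25.2, 44.3 and 32.2 CPM against 21.8, 18.5, 9.63 and 20.3 CPM, did not overlap but missed the threshold (0.76, SE 0.32, adjusted p = 0.0553).

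Among the other pathway genes, 40 were tested, 8 higher and 7 lower in sodium channel nuclei, and DESeq2 called 7. Their median log2 difference was 0.08. *Maml2*, a coactivator of the nuclear complex, was at 399, 275, 329 and 442 CPM in sodium channel nuclei and at 16.6, 13.9, 30.8 and 11.3 CPM in the IMCD type. No mouse came near the other class (log2 fold change 4.18, SE 0.21, adjusted p = 2.02e-25). *Nrarp*, a Notch target that feeds back on the receptor complex, had 17 UMIs in sodium channel nuclei, 10 of them in knockout 1, and 0 in the IMCD type, at least 9.71-fold higher (adjusted p = 0.000402; 0.38 with DESeq2), and it entered the test only through the sodium channel nuclei. The γ-secretase subunits *Psenen* (-1.20) and *Psen2* (-1.07), the protease *Furin* (-0.67), *Poglut1* (-1.016), *Dtx2* (-1.19), *Snw1* (-0.57) and *Rbpj* (-0.81, log2) were lower. The inhibitor *Numb* (1.19), *Dtx3* (1.18), *Neurl3* (1.17), the acetyltransferase *Kat2b* (1.10), the γ-secretase subunit *Aph1c* (0.94) and *Maml3* (0.72) were higher.

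Intercalated nuclei were divided into 398 of type A, the acid-secreting form, and 260 of type B, the base-secreting form. The high *Jag1* of intercalated nuclei was mostly that of type B, which held 281 of the 317 UMIs. In the test, 11% of 11286 genes passed, 5.94% higher and 5.05% lower in type A. *Jag1* was at 26.6, 34.3, 61.1 and 43.2 CPM in type A and at 313, 313, 337 and 304 CPM in type B. Type B differed little between mice and was far above type A in each (log2 fold change -2.95, SE 0.26, adjusted p = 1.45e-19, 7.74-fold). Of the 8 members tested, *Jag1* alone passed. *Dll4* had 8 UMIs in type A and 18 in type B, with overlap between mice (-1.32, SE 0.69, adjusted p = 0.253). *Adam10* was at 170, 193, 183 and 181 CPM in type A and 95.7, 102, 136 and 129 CPM in type B, higher in type A of all 4 mice without overlap, and just missed the threshold (0.64, SE 0.23, adjusted p = 0.0502).

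Of the other pathway genes, 3 of 35 tested were lower in type A and none higher, with 3 called by DESeq2 and a median log2 difference of -0.07 against 0.01 over all genes. *Dll1* was at 0, 6.24, 0 and 8.64 CPM in type A and at 58.9, 156, 51.9 and 58.5 CPM in type B (log2 fold change -4.19, SE 0.54, adjusted p = 8.49e-11). Its UMIs in type A were under the number needed for a test, so that *Dll1* entered the test only through type B. *Hey2* was at 0 UMIs in type A and at 36.8, 15.6, 25.9 and 29.3 CPM in type B, at least 8.56-fold higher (25 UMIs, adjusted p = 9.94e-05), and it entered the test only through type B. *Maml3* was at 166 CPM on average in type A and 497 CPM in type B (-1.56, adjusted p = 3.34e-10). *Notch2* was at 18.8 ± 10.6 CPM in type A and 16.3 ± 5.53 CPM in type B (SD, n = 4). Type B nuclei also held the 6 CNT markers at 3955, 258, 7184 and 755 CPM in sum, against 964, 543, 1887 and 2060 CPM in type A. CNT nuclei had 0 to 5.35 CPM of *Jag1*. The part of CNT RNA in the differences between type A and type B was not tested.

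**Figure D3:**
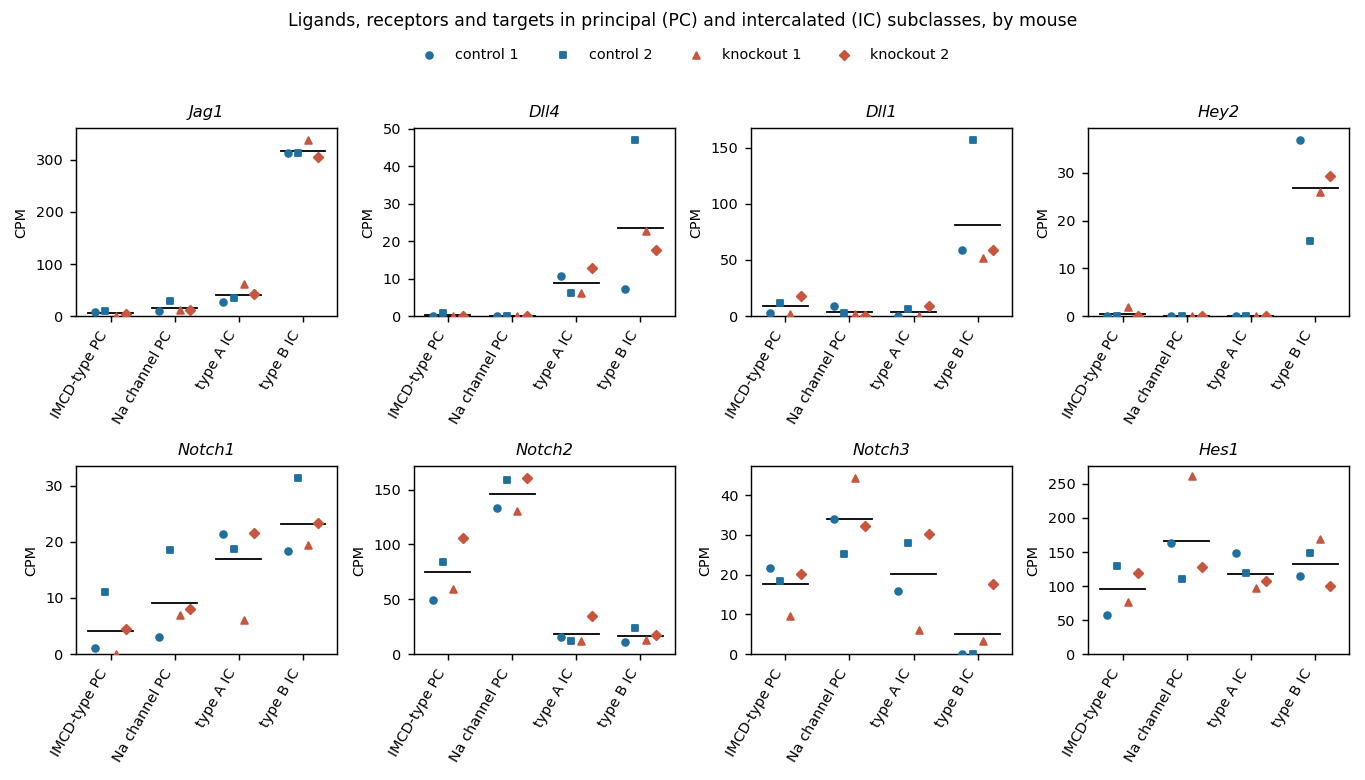
Levels (CPM, vertical axis, linear, own scale per panel) of the ligands *Jag1*, *Dll4* and *Dll1*, the target *Hey2*, the receptors *Notch1* to *Notch3* and the target *Hes1* in 4 collecting duct subclasses (horizontal axis); a point is 1 mouse and the line the mean of the 4. *Jag1* sits at 304 to 337 CPM in type B and at most 61.1 CPM elsewhere, and *Notch2* is at 49.8 CPM or more in principal subclasses and at most 34.6 CPM in intercalated ones.

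The endothelium was divided by markers into 79 arterial-type nuclei (22, 31, 18 and 8 in the 4 mice) and 1345 other endothelial nuclei. A further 64 of the 1488 endothelial nuclei, in a cluster with 4 of 8 arterial markers, were in neither group. Arterial-type nuclei had more *Jag1* and *Jag2* and less *Hes1* than the rest. Of 11832 genes tested, 6.27% passed, 2.16% higher and 4.11% lower in arterial-type nuclei. The median log2 difference of all genes was -0.43 with TMM and -0.11 without, so that values here are to be read against -0.43. *Jag1* was at 375, 338, 107 and 66.3 CPM in arterial-type nuclei, from 16, 21, 3 and 1 UMIs, and at 7.6, 7.26, 8.32 and 19.3 CPM in the rest. Both knockouts were under both controls in arterial-type nuclei, and all 4 mice were above the rest (log2 fold change 4.25, SE 0.50, adjusted p = 3.93e-15). *Jag2* was at 187, 193, 179 and 398 CPM against 15.2, 21.8, 15.0 and 27.6 CPM (3.12, SE 0.48, adjusted p = 1.10e-08). *Hes1* was at 70.2, 48.3, 71.4 and 0 CPM against 141, 109, 226 and 314 CPM (-1.97, SE 0.48, adjusted p = 0.00136), lower in all 4 mice. The arterial-type values rest on 3, 3, 2 and 0 UMIs, against 388 UMIs in the rest. *Hes1* thus entered the test only through the other endothelium. The values read did not overlap. However, the 0 of knockout 2 allows up to 199 CPM, above both controls in the rest but under the 314 CPM of knockout 2 there.

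The receptors and *Dll4* did not divide the endothelium in the same way. *Notch1* was at 211, 290, 71.4 and 199 CPM in arterial-type nuclei and at 169, 191, 213 and 262 CPM in the rest (-0.28, SE 0.33, adjusted p = 0.748). *Dll4* was at 46.8, 242, 71.4 and 133 CPM against 71.4, 72.6, 98.2 and 116 CPM (0.32, SE 0.42, adjusted p = 0.781). Both overlapped between the groups. *Hey1*, with 5 and 13 UMIs, was at 23.4, 48.3, 35.7 and 0 CPM against 6.08, 4.84, 6.66 and 8.27 CPM (1.97, SE 0.98, adjusted p = 0.311). *Notch4*, the receptor largely restricted to endothelium, was at 257, 193, 179 and 199 CPM against 108, 72.6, 105 and 143 CPM, higher in arterial-type nuclei of 4 of 4 mice but short of the threshold (0.72, adjusted p = 0.312). Of the other pathway genes, 40 were tested, with *Furin* higher (1.29) and *Maml2* (-0.76), *Maml3* (-1.80) and *Numb* (-1.14) lower. DESeq2 called 2 of them, and the median log2 difference of the 40 was -0.63. In arterial-type nuclei, 8 interstitial markers summed to 0 in every mouse, where a 0 allows 48.3 to 199 CPM, and 8 pericyte and muscle markers to 46.8, 64.4, 71.4 and 66.3 CPM. The 8 tL markers summed to 7840, 4913, 5786 and 7160 CPM there and to 5281, 1671, 1714 and 2551 CPM in the other endothelium, and tL nuclei had 47.6 to 77.9 CPM of *Jag1*. The part of other cell types in the endothelial differences was not tested. With nuclei under 1% mitochondrial UMIs, in which control 1 kept 2 arterial-type nuclei, none of the 3 calls held (*Jag1* 2.35, adjusted p = 0.0657; *Jag2* 1.021, adjusted p = 0.721; *Hes1* -1.45, adjusted p = 0.145), and with all variable genes in the clustering, where a second cluster of 59 nuclei with 5 of 8 arterial markers also counted as arterial-type, *Jag1* was at 1.63 (adjusted p = 4.38e-05).

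**Figure D4:**
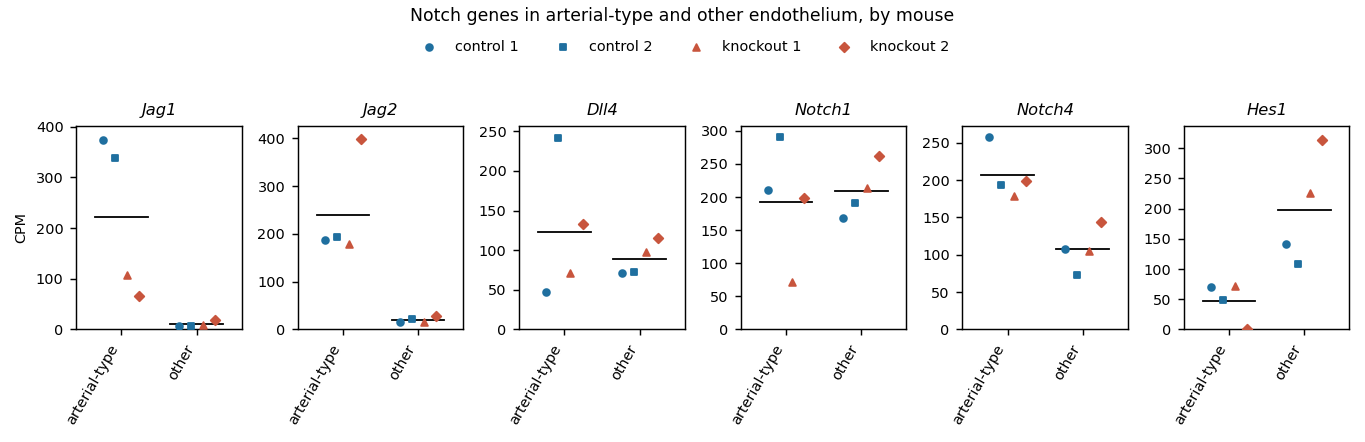
Levels (CPM, vertical axis, linear, own scale per panel) of *Jag1*, *Jag2*, *Dll4*, *Notch1*, *Notch4* and *Hes1* in arterial-type and other endothelial nuclei; a point is 1 mouse and the line the mean of the 4. *Jag1* and *Jag2* are higher and *Hes1* lower in arterial-type nuclei of every mouse, while the *Dll4* and *Notch1* points overlap. The arterial-type *Hes1* points rest on 8 UMIs, with 0 in knockout 2.

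Interstitial nuclei were divided into 138 of pericyte and muscle type and 138 of fibroblast type. The 8 pericyte and muscle markers summed to 1798, 1681, 4391 and 741 CPM in the pericyte type. In the fibroblast type they summed to 1212, 1167, 1491 and 848 CPM, so that knockout 2 went against the name. The 8 tL markers summed to 12060, 3668, 2682 and 4039 CPM in the pericyte type and 576, 497, 399 and 165 CPM in the fibroblast type. The part of tL RNA in this comparison was not tested. None of the 7 members tested passed, by edgeR or by DESeq2, while 6.95% of 8330 genes did. *Notch3* was at 165, 474, 165 and 185 CPM in the pericyte type and at 89.4, 298, 86.7 and 141 CPM in the fibroblast type. It was higher in the pericyte type of 4 of 4 mice with control 2 high in both (log2 difference 0.68, SE 0.38, adjusted p = 0.406). *Notch1* was at 0, 15.3, 55.1 and 0 CPM in the pericyte type and at 49.7, 112, 86.7 and 94.2 CPM in the fibroblast type. It was lower in the pericyte type of every mouse (-2.11, SE 0.77, adjusted p = 0.0778) and was the 1 member with an unadjusted p under 0.05. Of the other pathway genes, 0 of 29 tested passed by either tool and 7 had an unadjusted p under 0.05 by edgeR. Their median log2 difference was -0.18, against -0.04 over all genes.

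Between genotypes, compared without a block, no member passed the test in any class. A fit with the replicate number as a block, in which the result differed for *Hes1* in ECs, is given in the closing section. In all, 83 pairs of a member and a class were tested over 12 classes, 39 higher and 44 lower in knockouts, with 4 at an unadjusted p under 0.05. The share of all genes that passed was 0% in Podo, tL, DCT, CNT, CD-PC, CD-IC, IntC and ImC, 0.00563% in PT, 0.0135% in the TAL, 0.0097% in DMEP and 0.00831% in EC. At an unadjusted p under 0.05 there were 324 genes in CD-PCs and 246 in CD-ICs, and DESeq2 called 3 and 0 genes.

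In CD-PCs, 0 of 8 members tested passed with edgeR's quasi-likelihood test or with DESeq2, and 0 had an unadjusted p under 0.05. *Jag1*, at 8.54 and 18.0 CPM in controls and 5.27 and 7.22 CPM in knockouts, was lower in both knockouts (10 against 44 UMIs; log2 difference -1.16, SE 0.60, adjusted p = 0.999). *Hes1*, at 84.6 and 122 CPM in controls and 160.2 and 123 CPM in knockouts, was higher in both by a narrow margin (0.43, SE 0.30, adjusted p = 0.999). Groups overlapped for the other 6. Groups were also apart for 10 of the 40 other pathway genes tested in CD-PCs, and for 22 of the 83 pairs of a member and a class. Groups apart are thus not unusual with 2 mice each, and the share over all genes was not counted. *Notch2* differed by 0.18 (SE 0.32) and *Adam10* by 0.05 (SE 0.26, log2). In CD-ICs, 0 of 8 passed by either tool and 0 had an unadjusted p under 0.05. The groups overlapped for every member tested there and were apart for 11 of the 35 other pathway genes. *Jag1* differed by 0.36 (SE 0.38) and *Notch2* by 0.45 (SE 0.60). The difference of the genotype effect between CD-PCs and CD-ICs, tested as an interaction over 14199 genes of which 0.0493% passed, passed for 0 of 9 members by edgeR or DESeq2, with 1 at an unadjusted p under 0.05 by edgeR. The lowest member p was that of *Jag1* (-1.61, SE 0.56, unadjusted p = 0.00421 in edgeR's fit over all genes, adjusted p = 0.961). Of the other pathway genes, 0 of 40 passed in CD-PCs and 0 of 35 in CD-ICs by either tool, and 0 had an unadjusted p under 0.05 in either. Their median log2 difference was 0.04 in CD-PCs and -0.12 in CD-ICs, against -0.01 and 0.03 over all genes.

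In the other 10 classes, 67 pairs were tested, 0 passed by either tool, and the 4 pairs with an unadjusted p under 0.05 lay here. The lowest adjusted p was that of *Hes1* in ECs, at 125 and 97.2 CPM in controls and 216 and 289 CPM in knockouts. Both knockouts were above both controls (log2 difference 1.18, SE 0.29, adjusted p = 0.665 in edgeR's test). The other endothelial nuclei, at 141, 109, 226 and 314 CPM, held 388 of the 400 *Hes1* UMIs of ECs. Their order therefore repeats that of ECs and is no separate observation. In arterial-type nuclei, at 70.2, 48.3, 71.4 and 0 CPM, the genotypes overlapped. *Hes1* in CNTs was at 80.7 and 61.6 against 137 and 113 CPM, with the knockouts again above (0.80, SE 0.31, adjusted p = 1). *Jag1* in ECs was at 33.2 and 49.6 against 15.6 and 22.8 CPM (-1.10, SE 0.43, adjusted p = 0.998), and the arterial-type nuclei, which held 41 of the 70 endothelial *Jag1* UMIs, numbered 22 and 31 in controls and 18 and 8 in knockouts. The part of these nuclei in the *Jag1* difference was not tested. *Jag2* in PT had 4 UMIs in controls and 16 in knockouts (1.6, SE 0.62, adjusted p = 1).

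**Figure D5:**
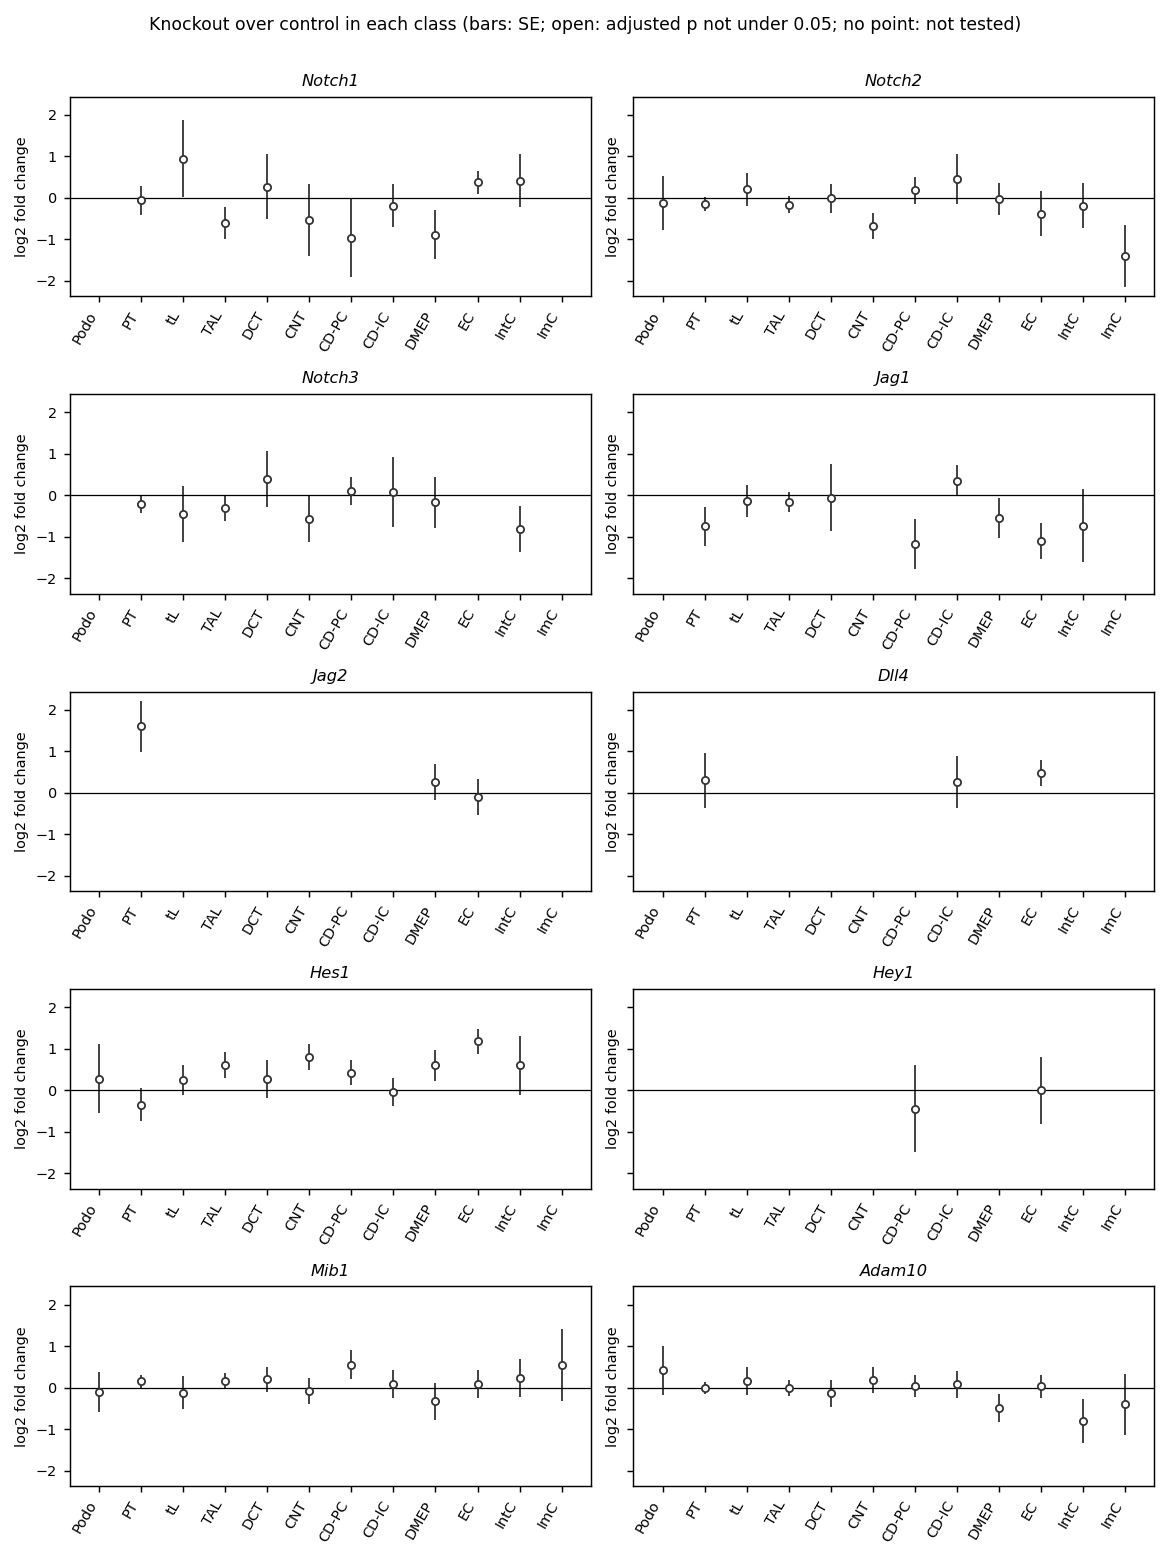
Log2 difference of knockout over control (vertical axis; bars, SE, 2 mice per group) of each member in the classes in which it was tested (horizontal axis; no point, under 10 UMIs). No point has an adjusted p under 0.05; *Hes1* in EC, at 1.18, is the member and class with the lowest adjusted p.

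Genes whose levels followed a member over the 12 classes were listed by the Pearson correlation of log2(CPM + 10), the mean of 4 mice, among 12336 genes with at least 20 CPM in 1 class. The 12 points share libraries and depth, and a correlation over so few classes describes these classes only. *Notch1* was followed by *Ptpru*, *Procr* and *Usp18* (r = 0.958, 0.947 and 0.943), and *Dll4* by *Vwa3a*, *Klhl4* and *Gfpt2* (0.962, 0.944 and 0.937). *Jag2* was followed by *8430408G22Rik*, *Sncg* and *Vsig2* (0.976, 0.974 and 0.966) and *Notch3* by *Nexn*, *Chn1* and *Hpse2* (0.923, 0.906 and 0.869). *Jag1* was followed by *Gm26735*, *G2e3* and *Ppp1cb* (0.875, 0.874 and 0.868), *Mib1* by *4921524J17Rik*, *Sec23a* and *Cutc* (0.873, 0.845 and 0.825), and *Hes1* by *Pwwp2b*, *AC163018.1* and *Plcb4* (0.923, 0.917 and 0.907). *Adam10* was followed by *Keap1*, *Spryd3* and *Efnb2* (0.894, 0.88 and 0.877). *Hey1*, which reached only 7.92 CPM in its highest class, was followed by *Adam10*, *Sncg* and *Efnb2* (0.937, 0.924 and 0.922). *Notch2*, followed by *Ppcdc*, *Zfp763* and *Slc35b4* (0.795, 0.793 and 0.773), had the least close followers of the 10.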

How the data were processed

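Nuclei came from a middle slice of the kidney, trimmed of cortex to enrich medulla, and were sequenced as 10x 3′ libraries. The deposited files hold raw UMI counts of 31053 genes per barcode, which the authors made with Cell Ranger 3.0.2 against mm10 (both per the labels). The members and lists were chosen with earlier results of these data known. From each library, the 10000 barcodes richest in UMIs were taken, less those with 500 genes or fewer, 4000 genes or more, or 5% or more of mitochondrial UMIs, after the study's methods. Nuclei were integrated and clustered in Seurat 5.3.0, without the 60 pathway genes. Clusters were named from marker lists, with limits set after the clusters were seen. Doublets (Scrublet in scanpy 1.11.5; 4.35% to 6.40% per mouse) were left out only in an alternative. Class sums of each mouse were compared in edgeR 4.0.16 (R 4.3.3; TMM, quasi-likelihood test, genes with at least 10 UMIs, Benjamini-Hochberg adjusted p under 0.05), with the mouse as a block between classes. DESeq2 1.42.0, no TMM, filterByExpr, no block or a replicate block, leaving out each mouse, all variable genes, cluster resolution 0.8, no doublets, under 1% mitochondrial UMIs and subtracted free RNA were the alternatives. The tests were checked on simulated data, in which a 2-fold change between genotypes was recovered in 19.4% of cases in CD-PCs and 2.1% in CD-ICs. For the genotype effect in CD-PC against that in CD-IC it was 5.5%, and for CD-PC against CD-IC 75.2%. A 4-fold change was recovered in 97.1%, 70.5%, 64.8% and 100% of cases in this order. The changed genes were among the better counted ones. A member not called between genotypes may thus have changed 2-fold. Genes named were the 10 members, the genes of the pathway list past the threshold in a comparison, the 3 genes most like each member over the classes, and *Notch4* in the endothelium, which was chosen after its values were seen. A gene of the pathway list that was counted is not reported here by name. Intervals and floors cover counting error only, and p-values between genotypes rest on 2 mice per group.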

Additional observations from a re-analysis of the deposited data

Results flagged for a closer look

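In 41 comparisons of a member over 4 mice, the mouse farthest from the others was looked for, and 2 stood apart; chance alone gives about 1 in 20. For *Notch3* in sodium channel principal against IMCD-type nuclei, the log2 ratio of CPM + 10 was 1.47 in knockout 1 and 0.30 to 0.48 in the other mice. For *Hes1* in arterial-type against other endothelial nuclei, it was -5.02 in knockout 2 and -1.54 to -0.92 in the others; knockout 2 had 8 arterial-type nuclei, with 0 UMIs of *Hes1*. The value at 0 UMIs is set by the 10 CPM added, and this 0 allows up to 199 CPM, so that the mouse cannot be said to differ from the others.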

How the results depend on the processing

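Of 14 member results past the threshold, 8 stayed past it under every alternative run, 6 lost it under at least 1, and 0 reversed. The 6 were *Notch3* in CD-PC against CD-IC, *Jag1* and *Hes1* in sodium channel against IMCD-type nuclei, and *Jag1*, *Jag2* and *Hes1* in the endothelium. The 8 include *Dll4* in CD-PC against CD-IC, which entered the test only through CD-ICs, so that its staying past the threshold is no support. In CD-PC against CD-IC, 5 members passed, against 3 with filterByExpr, under which 7 were tested, 6 with no filter on low counts, 6 at cluster resolution 0.8 and 4 to 5 when 1 mouse was left out. In sodium channel against IMCD-type nuclei, 5 passed, against 3 with DESeq2, 3 without the mouse as a block, 6 without TMM, 6 with all variable genes, 6 at cluster resolution 0.8 and 3 to 5 when 1 mouse was left out, the lowest without knockout 1. In type A against type B, 1 passed, against 2 without TMM, 2 with filterByExpr, under which 4 were tested, 2 with all variable genes in the clustering, 3 without called doublets and 1 to 1 with a mouse left out. In the endothelium, 3 passed, also with any mouse left out, against 0 under 1% mitochondrial UMIs. In the interstitium, 0 passed, and 0 to 1 with a mouse left out, the 1 being without knockout 1; the comparison could not be run under 1% mitochondrial UMIs, where no interstitial class was named. Between genotypes, 0 members passed under every alternative in CD-PCs, CD-ICs and the interaction. With the replicate number as a block, 1 of 67 pairs passed in the other classes (*Hes1* in EC, log2 difference 1.16, adjusted p = 0.000181). The numbers give only 2 pairs, and no label ties them to a litter or day. Same-numbered mice deviated together in all 12 classes, with r = 0.072 to 0.525. Libraries numbered 1 held 42138345 UMIs (control) and 44964099 UMIs (knockout), and those numbered 2 held 24998797 and 22179410. Whether same-numbered mice shared more than a number was not tested, so that no choice between the fits with and without the block is made here. Under this block, genes past the threshold went from 1 to 108 in EC, 0 to 75 in CD-PC and 0 to 54 in CD-IC. The highest class was the same for 7 to 10 of the 10 members, the fewest under 1% mitochondrial UMIs, and for 8 to 9 with a mouse left out. Except where the alternative itself tests fewer genes, the cause was not tested. Depth limits the arterial-type nuclei most, where a count of 0 over the 4 mice allows 20.3 CPM.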
